A study of Mus musculus with 2 samples.

Results

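The genes described here encode surface molecules that let white blood cells hold on to the vessel wall, proteins that start or restrain clotting there, and a secreted vessel protein. They are Vcam1, Icam1, Icam2 and Selp (adhesion), Vwf, Thbd, Procr and Plat (clotting and its control) and Lrg1, 9 of the 19059 genes in the files, picked by symbol. Their unique molecular identifiers (UMIs, tags that mark single probe molecules) were summed in endothelial cells, in vessel groups of these cells and in the other cell classes. C57BL/6 mice of both sexes, 21 months old when treatment began, were either left on control diet or received tomatidine, a steroidal alkaloid from tomato, at 0.05% of the diet for 3 months. Hippocampi of 4 mice per group were pooled, so that each group is 1 library, with no replicate and no test between the groups. Every 95% interval below covers counting error alone, and a difference in how the libraries were made would look the same as a difference between the diets.

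Brain endothelial cells are usually quiet: they line the blood-brain barrier and keep blood from clotting and leukocytes from settling. Rolling leukocytes are caught by selectins and then held by the immunoglobulin-like molecules VCAM-1, ICAM-1 and ICAM-2, which bind integrins, and cytokines that act through NF-kappaB are known to raise VCAM-1 and ICAM-1, above all in small veins. Von Willebrand factor is stored in Weibel-Palade bodies together with P-selectin and catches platelets, thrombomodulin and the endothelial protein C receptor turn thrombin into a brake on clotting, and tissue plasminogen activator starts the removal of clots.

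The control library held 15912 cells and 279525565 UMIs and the tomatidine library 15185 cells and 259059908 UMIs, with 292 barcodes present in both. Filtering and removal of likely doublets left 29616 cells. Classes were rebuilt from marker genes after clustering without the 9 genes, and are called endothelial-like, mural-like and so on. One cluster was endothelial-like, with 292 control and 408 tomatidine cells, 700 of the 29616. All 12 endothelial markers in the files were found in it in both libraries, and its leading genes were Cldn5, Adgrl4 and Flt1. The control cells were deeper (median 6510 against 4631.5 UMIs), and a sum over cells therefore weighs deep cells more. Its sums were 3496117 and 3812533 UMIs, and levels are given as UMIs per 1000000 of these (CPM). The cluster also carried RNA of other cells. All 11 mural markers were found and made up 0.671% of the control and 0.832% of the tomatidine UMIs. All 12 astrocyte markers made up 0.755% and 0.536%, and all 11 microglia markers 0.0615% and 0.0606%. The 10 choroid plexus markers made up 0.231% and 0.00918% (Folr1 and Tmem72 at 0 with tomatidine), the 5 red cell markers 0.416% and 0.210%, and the 9 platelet markers 0.0137% and 0.00695% (Gp5 at 0 with tomatidine). Their part in the differences below was not tested, except that the counts were also taken without cells rich in mural markers.

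The genes differed in how far they were endothelial. Of all UMIs of a gene, endothelial-like cells held 90.9% for Vwf, 90.3% for Icam2, 55.5% for Lrg1, 48% for Procr, 38.8% for Thbd, 25.6% for Icam1, 16.1% for Vcam1 and 12.1% for Plat. Thus the heading of endothelial genes fitted Vwf and Icam2 closely, while most Vcam1, Icam1, Thbd and Plat molecules came from other cells. Selp was close to absent, with 10 UMIs in all cells and 7 in endothelial-like cells (4 control, 3 tomatidine), and no ratio is given for it.

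**Figure D1:**
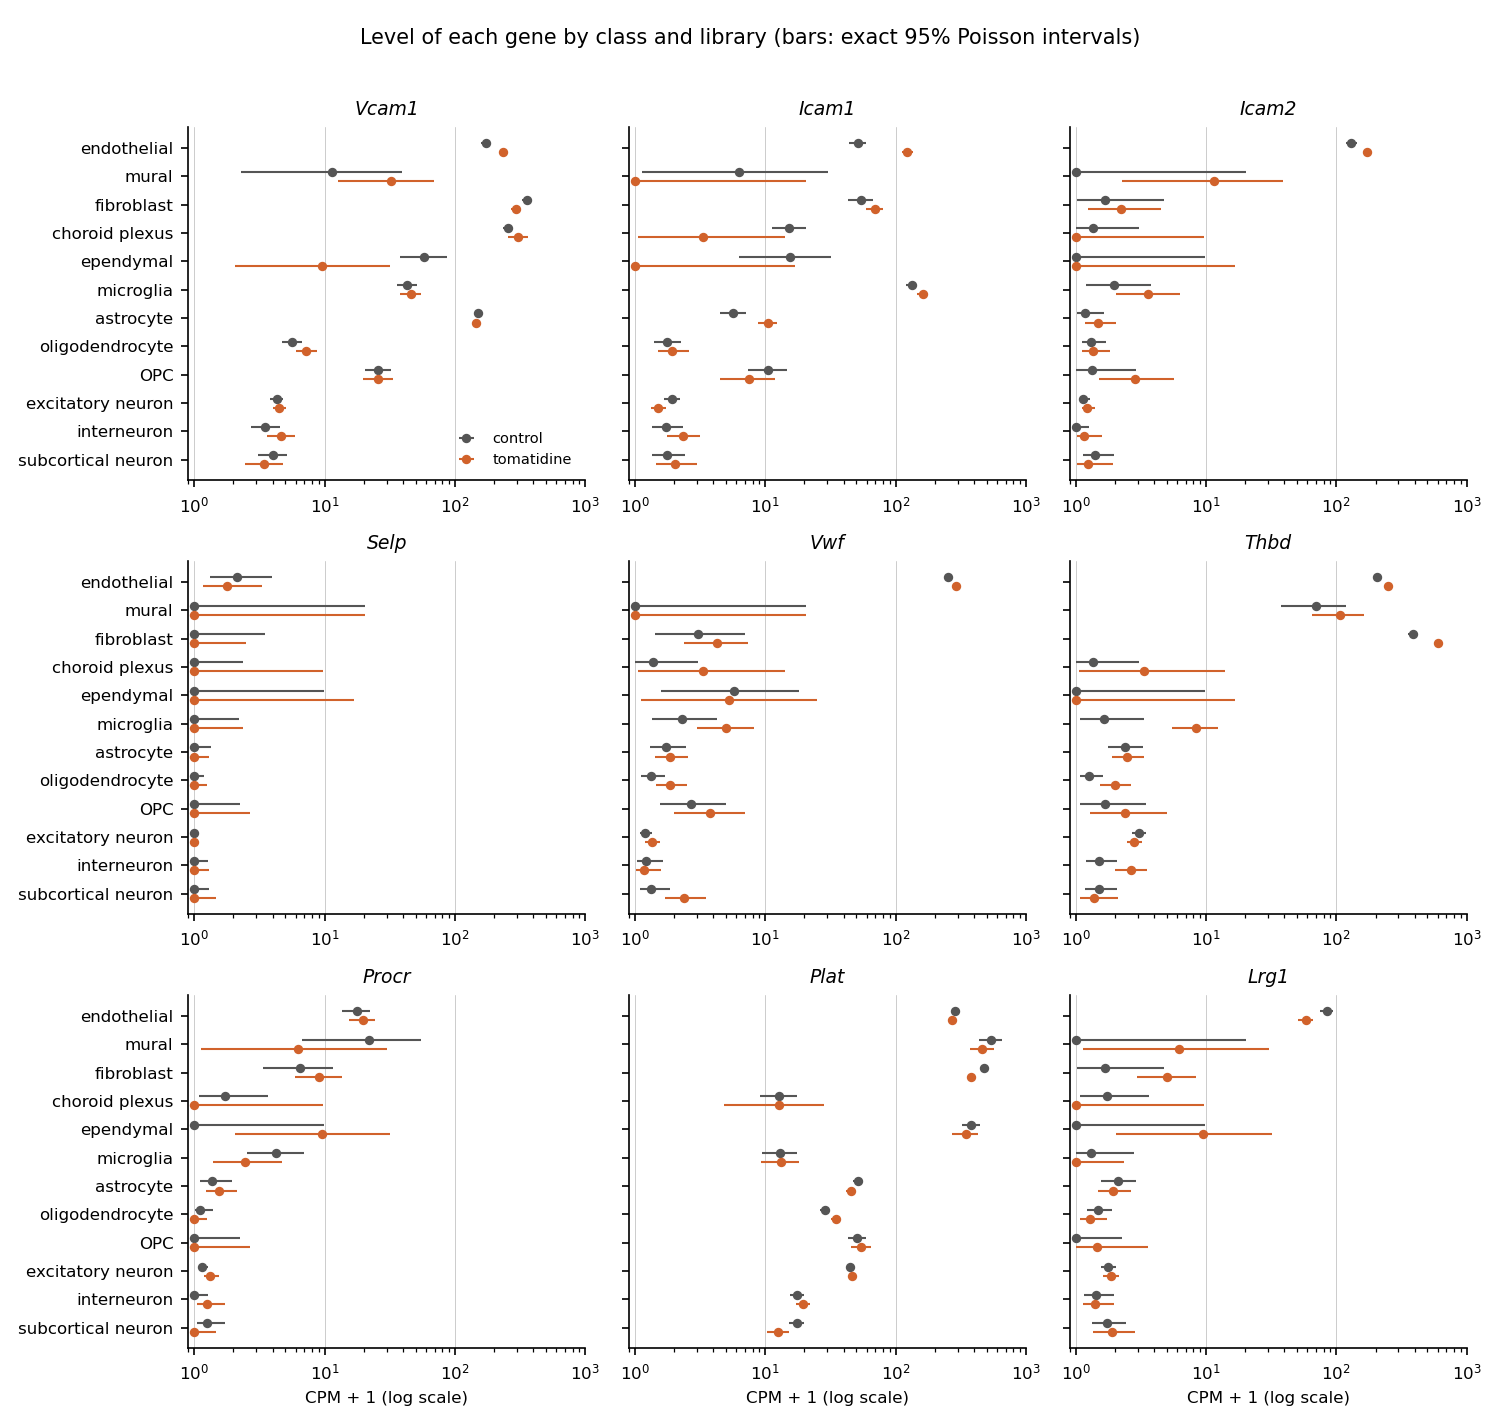
Level of each gene by cell class, in CPM + 1 on a log axis, with 1 point for each library and exact 95% Poisson intervals; a point at 1 marks no UMI. Vwf and Icam2 stand out in endothelial-like cells alone (253 and 292 CPM for Vwf), while Vcam1, Thbd and Plat reach equal or higher levels in fibroblast-like cells.

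With both libraries summed, the classes were put in order for each gene. Vcam1 stood at 327 CPM (295 to 362) in an unnamed cluster led by H2-Ab1, Mrc1 and Cd163, and at 315 CPM (298 to 333) in fibroblast-like cells of the meninges or perivascular space, levels whose intervals overlap. Choroid plexus-like cells followed at 261 CPM (243 to 279), endothelial-like cells at 203 (193 to 213) and astrocyte-like cells at 146 (141 to 151), each apart from its neighbour. The libraries differed in this order: with tomatidine, choroid plexus-like cells (33 against 343 in the control) stood at 303 CPM (253 to 361) and fibroblast-like cells at 291 (270 to 313), with overlapping intervals. Icam1 was highest in microglia-like cells at 145 CPM (135 to 155), before the same unnamed cluster at 111 (92.4 to 132) and endothelial-like cells at 87.7 (81.0 to 94.8), whose intervals overlap slightly. This order of Icam1 belonged to neither library alone. In the control, endothelial-like cells (50.3 CPM) lay below the unnamed cluster (114) and beside fibroblast-like cells (53.2), and with tomatidine they (122) lay above the unnamed cluster (106), with overlapping intervals. Thbd was highest in fibroblast-like cells at 519 CPM (497 to 542), then endothelial-like cells at 228 (218 to 240) and mural-like cells at 86.7 (59.7 to 122). Plat was led by mural-like cells at 499 CPM (431 to 576), fibroblast-like cells at 414 (394 to 435) and ependymal-like cells at 367 (322 to 416), ahead of endothelial-like cells at 277 (266 to 290); the neighbours among the first 3 overlap. For Icam2, Vwf and Lrg1 the endothelial-like level (151, 273 and 69.6 CPM) was followed by 15.6, 10.8 and 32.9 CPM in the next cluster. Procr was low throughout, at 17.7 CPM (14.7 to 21) in endothelial-like cells and 15.6 (9.23 to 24.6) in the cluster led by H2-Ab1. Levels are not compared between genes, because the number of probes per gene differs.

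Icam1 and Lrg1 had the largest differences in summed level in endothelial-like cells, in opposite directions. The direction of Lrg1 depended on how cells were chosen and weighed, as given below. The DNA ahead of the starts of Icam1 and Lrg1 is shown because Icam1 is a textbook target of NF-kappaB. Icam1 (ENSMUSG00000037405) is a plus-strand gene of chromosome 9 (start 21015985, end 21028817 in GRCm38, also called mm10) with 1 coding transcript of 7 exons in GENCODE vM21. Lrg1 (ENSMUSG00000037095) is a minus-strand gene of chromosome 17 (start 56119678, end 56122001), with 1 coding transcript of 2 exons. The sequences are those of RefSeq's GRCm38.p6 table, which held a window for 4 of the 9 genes, and end before the start of the gene; capitals mark matches, on either strand, to GGNNNTTCC (an NF-kappaB-like motif) or TTCNNNGAA (a STAT-like motif).
Icam1, chr9:21015690-21015939, plus strand, 5′ to 3′: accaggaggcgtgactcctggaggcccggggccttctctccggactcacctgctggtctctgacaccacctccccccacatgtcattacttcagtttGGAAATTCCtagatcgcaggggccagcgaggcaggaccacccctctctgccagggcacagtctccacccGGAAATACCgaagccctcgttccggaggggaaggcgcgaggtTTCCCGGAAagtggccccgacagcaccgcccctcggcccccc
Lrg1, chr17:56122002-56122196, minus strand, 5′ to 3′: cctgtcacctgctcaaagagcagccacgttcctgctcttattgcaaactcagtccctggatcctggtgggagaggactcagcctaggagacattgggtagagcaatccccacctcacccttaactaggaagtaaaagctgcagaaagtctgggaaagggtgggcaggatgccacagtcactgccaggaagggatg
The 250 bases of Icam1 held 2 NF-kappaB-like matches, which did not overlap its 1 STAT-like match. The 195 bases of Lrg1 held neither of these motifs. A KLF-like motif (CCNCNCCC, either strand, not in capitals) had 1 match in Icam1, apart from the others, and 2 in Lrg1, and 45.9% of windows held one in 250 bases and 35.3% in 195. Of 32851 windows in the table, 15.7% held an NF-kappaB-like match and 7.02% a STAT-like match in 250 bases, and 11.8% and 5.64% in the first 195. In the upstream windows of Selp (250 bases) and Procr (150 bases), 1 NF-kappaB-like match was found for Selp and none for Procr, and no STAT-like match for either, while Procr held 2 overlapping KLF-like matches and Selp none. A match is a run of letters and not a shown binding site.

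The question of the comparison was whether the adhesion and clotting genes of endothelial cells stood at other levels after tomatidine. Icam1 showed the largest excess with tomatidine, Vcam1, Icam2, Thbd and Vwf stood somewhat above their control levels, Plat and Procr did not differ beyond counting error, and Lrg1 was lower in its sum. Icam1, the integrin ligand that halts leukocytes, had 176 UMIs in the control and 465 in the tomatidine library, or 50.3 CPM (43.2 to 58.4) and 122 CPM (111 to 134), a log2 ratio of 1.28 (1.02 to 1.54). Vcam1, which holds integrin-bearing lymphocytes and monocytes, had 597 and 885 UMIs, or 171 and 232 CPM, a log2 ratio of 0.44 (0.29 to 0.60). Icam2, the ligand found on resting endothelium, had 452 and 651 UMIs, or 129 and 171 CPM, a log2 ratio of 0.40 (0.23 to 0.58). For these adhesion genes the Poisson intervals of the libraries did not overlap.

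Among the clotting genes, Thbd (thrombomodulin) had 721 and 949 UMIs, or 206 and 249 CPM, a log2 ratio of 0.27 (0.13 to 0.41). Vwf had 886 and 1112 UMIs, or 253 (237 to 271) and 292 CPM (275 to 309), a log2 ratio of 0.20 (0.07 to 0.33). Procr, the protein C receptor, had only 58 and 71 UMIs, or 16.6 and 18.6 CPM, and its log2 ratio of 0.17 (−0.35 to 0.69) left the direction undetermined at this depth. Plat, the clot-dissolving activator, had 1000 and 1028 UMIs, or 286 and 270 CPM, and a log2 ratio of −0.09 (−0.21 to 0.04). Lrg1, whose product modifies TGF-beta signalling in vessels, had 291 and 218 UMIs, or 83.2 CPM (73.9 to 93.4) and 57.2 CPM (49.8 to 65.3), a log2 ratio of −0.54 (−0.80 to −0.28).

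**Figure D2:**
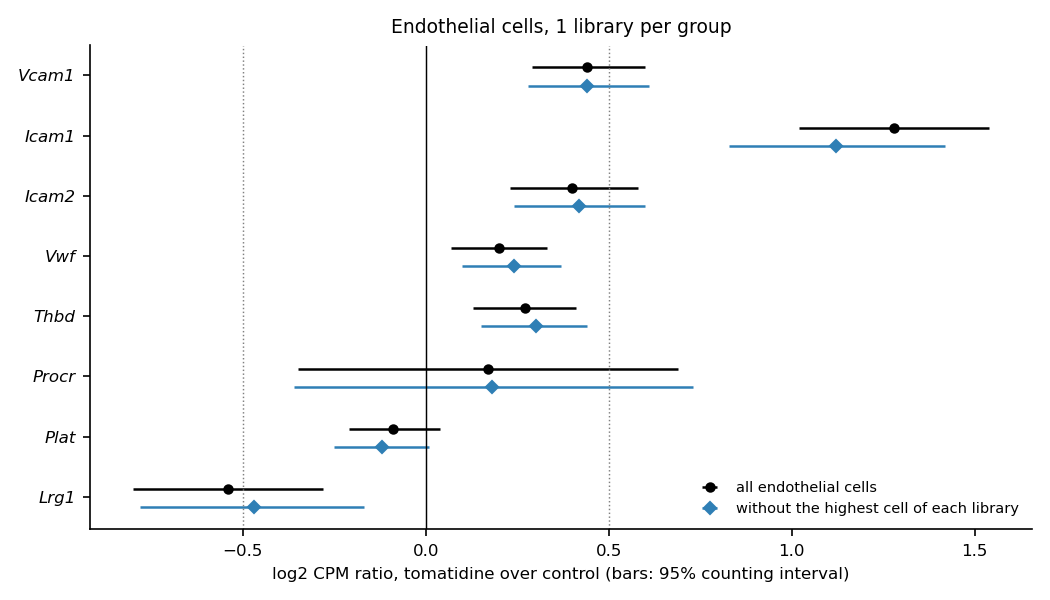
Endothelial-like log2 CPM ratio, tomatidine over control, for the 8 genes with enough UMIs, with 95% counting intervals, for all cells (circles) and without the cell of each library that held the most UMIs of that gene (diamonds); dotted lines mark ±0.5. Icam1 lies at 1.28 and at 1.12 without these cells, and Lrg1 at −0.54 and −0.47.

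Of the 8 genes that reached 20 UMIs, 6 had the higher CPM with tomatidine and 2 the lower, with a median log2 ratio of 0.24. Over all 12536 genes with as many UMIs, 53.9% were higher and the median was 0.02. At a log2 ratio of 0.5 or more, 1 of the 8 was higher (Icam1), beside 6.40% of all genes, and at −0.5 or less 1 was lower (Lrg1), beside 5.51%. Read against these shares, 1 gene of 8 in either direction is no result about the genes as a set.

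Cells were far from equal carriers of these genes. In the control library, 6 cells held 50% of the Vcam1 UMIs, 6 of the Icam1 UMIs and 3 of the Lrg1 UMIs, against 27 for Icam2, 21 for Vwf, 24 for Thbd and 34 for Plat. The 10 highest cells held 92.4% of the control and 56.9% of the tomatidine Lrg1 UMIs. For Icam1 they held 60.2% and 62.4%, and for Vcam1 61.0% and 51.3%. For Icam2, Vwf and Thbd these shares were 31.4%, 33.5% and 30.2% in the control library and 18.0%, 20.1% and 19.5% in the tomatidine library, beside 292 and 408 cells in all.

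Single cells therefore weighed on the sums. One venous tomatidine cell with 30405 UMIs held 136 of the 465 Icam1 UMIs and 77 Vcam1 UMIs, beside 12 of 12 endothelial markers, 9 mural markers and 11 astrocyte markers. Without it, the Icam1 log2 ratio was 0.79. One venous control cell of 70479 UMIs held 89 Vcam1, 74 Vwf, 47 Thbd and 57 Lrg1 UMIs. Besides 12 endothelial markers it held 10 of 11 microglia, 10 of 12 astrocyte and 10 of 12 fibroblast markers, a mixture that the doublet score had not removed. The highest Lrg1 cell, a control cell, held 85 of 291 UMIs, and without it the Lrg1 ratio was −0.05. Besides 12 endothelial markers that cell held 9 of 11 mural and 9 of 12 fibroblast markers. The highest Vcam1 cell, a tomatidine cell with 120 Vcam1 UMIs, held 12 endothelial, 4 mural and 10 fibroblast markers. When at most 10 UMIs of a gene were counted per cell, a setting chosen after seeing the data, the ratio was 0.53 for Lrg1 and 0.88 for Icam1.

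**Figure D3:**
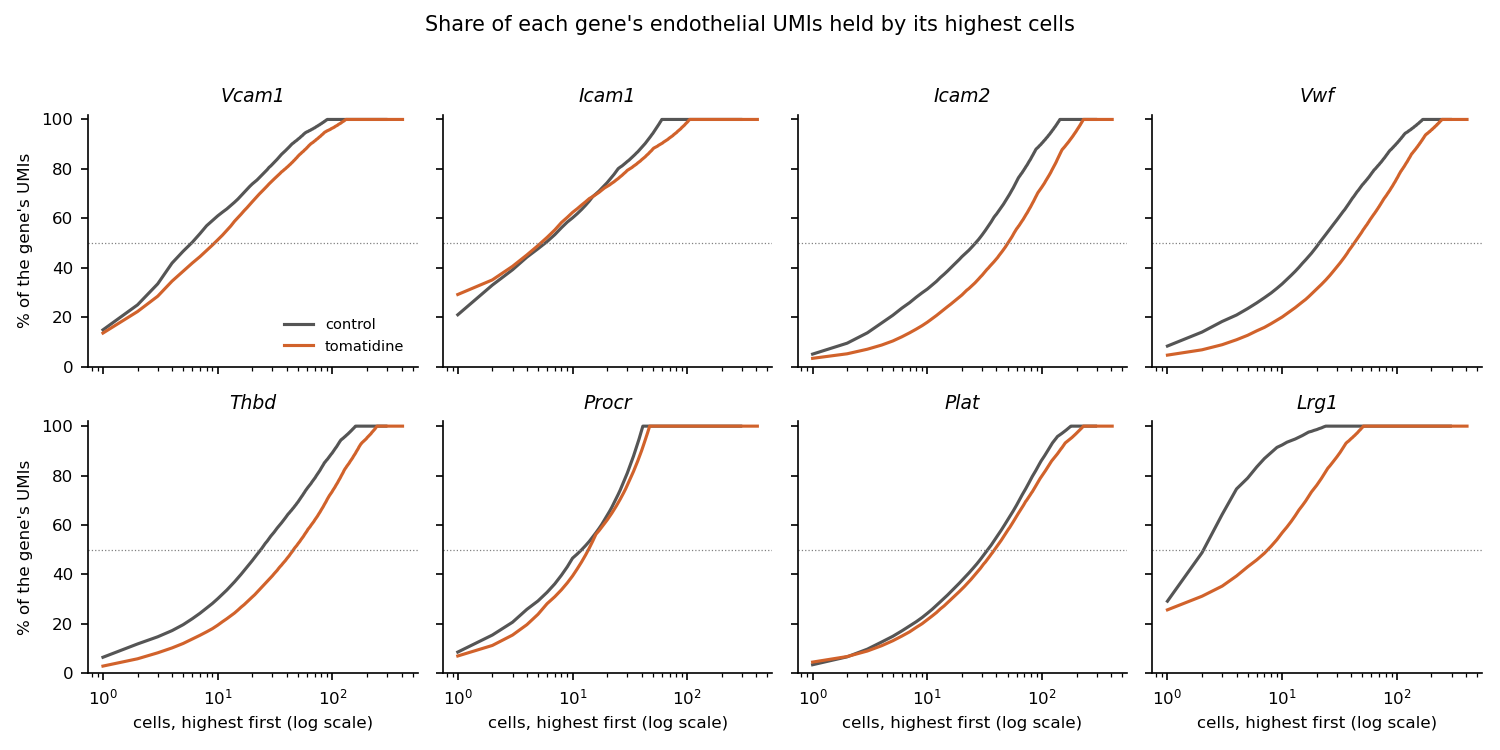
Percentage of a gene's endothelial UMIs (y axis) held by its highest cells (x axis, cells in falling order, log scale), for control and tomatidine; the dotted line marks 50%. The control line of Lrg1 reaches 50% at 3 cells and that of Plat at 34 cells.

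The direction of Lrg1 depended on how cells were chosen and weighed. Lrg1 was at 0.64 when the stricter cell filter of the study was also applied, which kept 233 control and 339 tomatidine cells. It was at 0.15 as a mean over cells of each cell's CPM and at 0.50 without cells in which 4 or more mural markers were found (176 and 245 cells left). Under the same 3 settings Icam1 lay between 1.15 and 1.27, and Vcam1 between 0.73 and 0.94. Under a gate on endothelial markers in place of the cluster (274 and 378 cells), Thbd lay at −0.01, Vwf at 0.02 and the median of the 8 genes at 0.01.

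**Figure D4:**
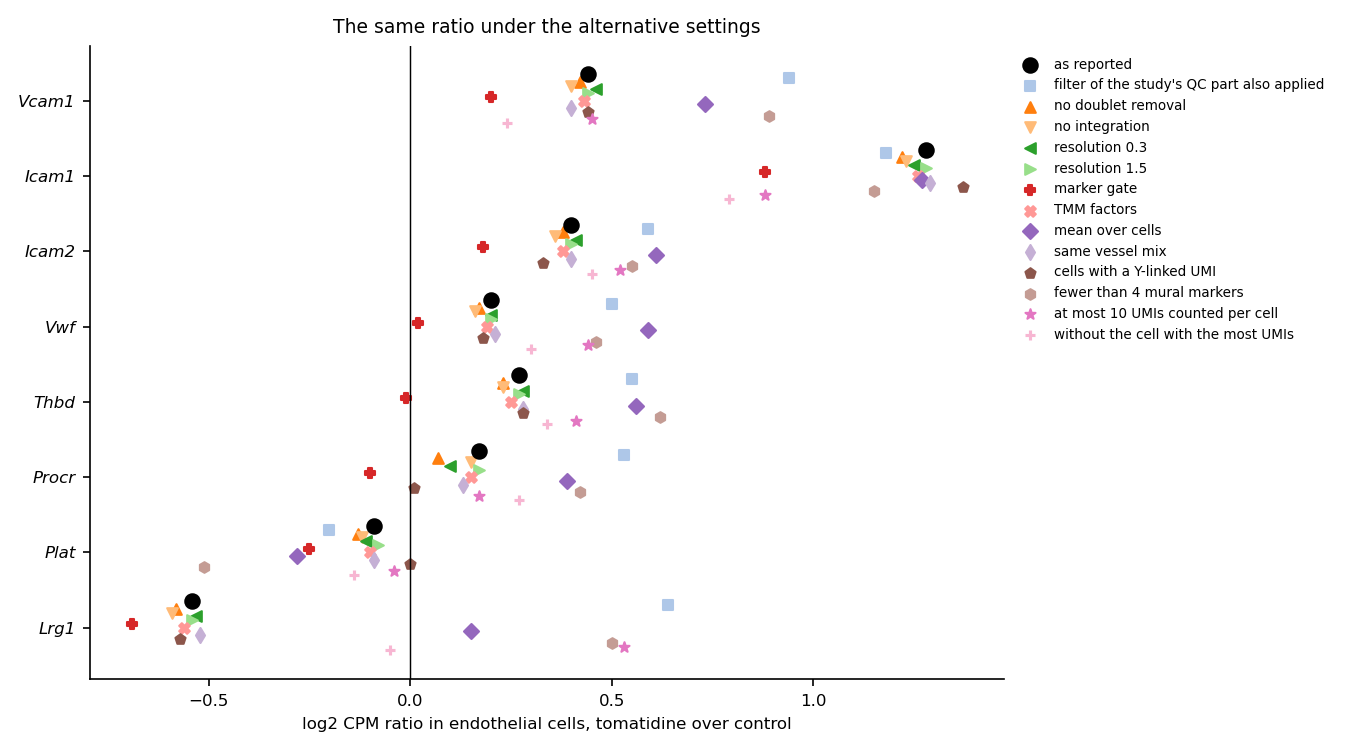
Log2 CPM ratio in endothelial-like cells for 8 genes as reported (black) and under 13 other settings, named in the legend. Icam1 lies above 0 throughout (0.79 to 1.37), and Lrg1 lies on both sides of 0 (−0.69 to 0.64).

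Counted as the share of cells with at least 1 UMI, Lrg1 was found in 24 of 292 control cells, 8.22% (5.34 to 12, exact binomial), and in 51 of 408 tomatidine cells, 12.5% (9.45 to 16.1). The tomatidine cells being shallower, all cells were also thinned to a depth of 1500 UMIs (37 control and 65 tomatidine cells were too shallow). The expected shares were then 4.93% and 9.48%, a difference of 4.56 percentage points (Newcombe interval 0.243 to 8.67). The interval included 0 without thinning (4.28 points, −0.413 to 8.71) and when thinned to 1000 UMIs (2.47 points, −1.50 to 6.17) or 3000 UMIs (3.71 points, −1.20 to 8.38), so the share of Lrg1 cells did not differ beyond counting error at every depth. Among venous cells, where nearly all Lrg1 UMIs lay, 20 of 53 control and 47 of 106 tomatidine cells carried it. At 1500 UMIs the interval also lay above 0 for Icam2 (16.7% and 25.3%, difference 8.65 points, 2.00 to 15.0), Vwf (26.5% and 34.5%, 8.06 points, 0.558 to 15.3) and Thbd (24.7% and 32.7%, 8.05 points, 0.679 to 15.1). It included 0 for Icam2 at 1000 UMIs (5.46 points, −0.0360 to 10.7), for Vwf at 3000 UMIs (4.33 points, −4.64 to 13.1) and for Thbd at both 1000 (5.65 points, −0.658 to 11.7) and 3000 UMIs (8.69 points, −0.337 to 17.5), and without thinning for all of these genes. For Vcam1 the shares at 1500 UMIs were 13.8% and 19.8% (5.96 points, −0.183 to 11.8), and for Icam1 6.42% and 10.7% (4.30 points, −0.372 to 8.73), with intervals that include 0. Plat was at 29.4% and 28.4% (−0.978 points, −8.38 to 6.27) and Procr at 2.68% and 3.38%. In these thinned shares an expected number of cells stood in for a count.

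As a gauge of free RNA, oligodendrocyte-like cells (median 5252 and 4827.5 UMIs) were thinned to the same depth. There Icam2, Vwf, Thbd, Procr and Lrg1 had a UMI in at most 0.169% of cells and Icam1 in 0.166% and 0.204%. Vcam1 was at 0.771% and 0.971%, and Plat at 4.0% and 4.05%. The endothelial-like shares given above lay over these levels for every gene in both libraries. Selp, at 1.37% and 0.735% of endothelial-like cells before thinning and 0 of 3018 and 0 of 2326 oligodendrocyte-like cells, was too rare for a comparison.

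Endothelial cells of arteries, capillaries and veins differ in their genes, and leukocytes leave the blood mainly through small veins. Each endothelial-like cell was placed in the vessel group whose markers it showed most, by a rule chosen after the data were seen. Capillary cells numbered 163 in the control and 181 in the tomatidine library, arterial cells 76 and 121, and venous cells 53 and 106. The venous share was 18.2% (13.9 to 23.1) and 26% (21.8 to 30.5), a difference of 7.83 points (1.55 to 13.8). In 185 of the 700 cells the leading group was close to the next. Venous cells were shallow (median 3215.0 and 3057.0 UMIs, against 8840.0 and 7869.0 in capillary cells), and a shallow cell is placed less surely.

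Lrg1 was close to a venous gene: 97.9% of its control and 97.7% of its tomatidine endothelial UMIs lay in venous cells. Its level there was 474 CPM in the control and 330 CPM in the tomatidine library, against 0.488 and 1.88 CPM in capillary and 5.91 and 0.961 CPM in arterial cells. Icam1 was venous to a lesser degree, with 55.7% and 69.0% of its UMIs. Venous cells stood above the other endothelial-like cells by 2.60 (2.15 to 3.04) on the log2 scale in the control and 3.45 (3.17 to 3.75) in the tomatidine library. Vcam1 was shared by veins and arteries: its arterial level exceeded the capillary level by 2.63 (2.28 to 2.99) and 3.03 (2.65 to 3.42) on the log2 scale. Vwf was above the other cells in veins by 1.87 (1.67 to 2.06) and 2.19 (2.02 to 2.36). Plat ran the other way, with venous cells below the rest by log2 ratios of −0.76 (−1.06 to −0.48) and −0.54 (−0.82 to −0.27). None of these genes was a marker of the vessel groups, and the patterns held in both libraries.

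**Figure D5:**
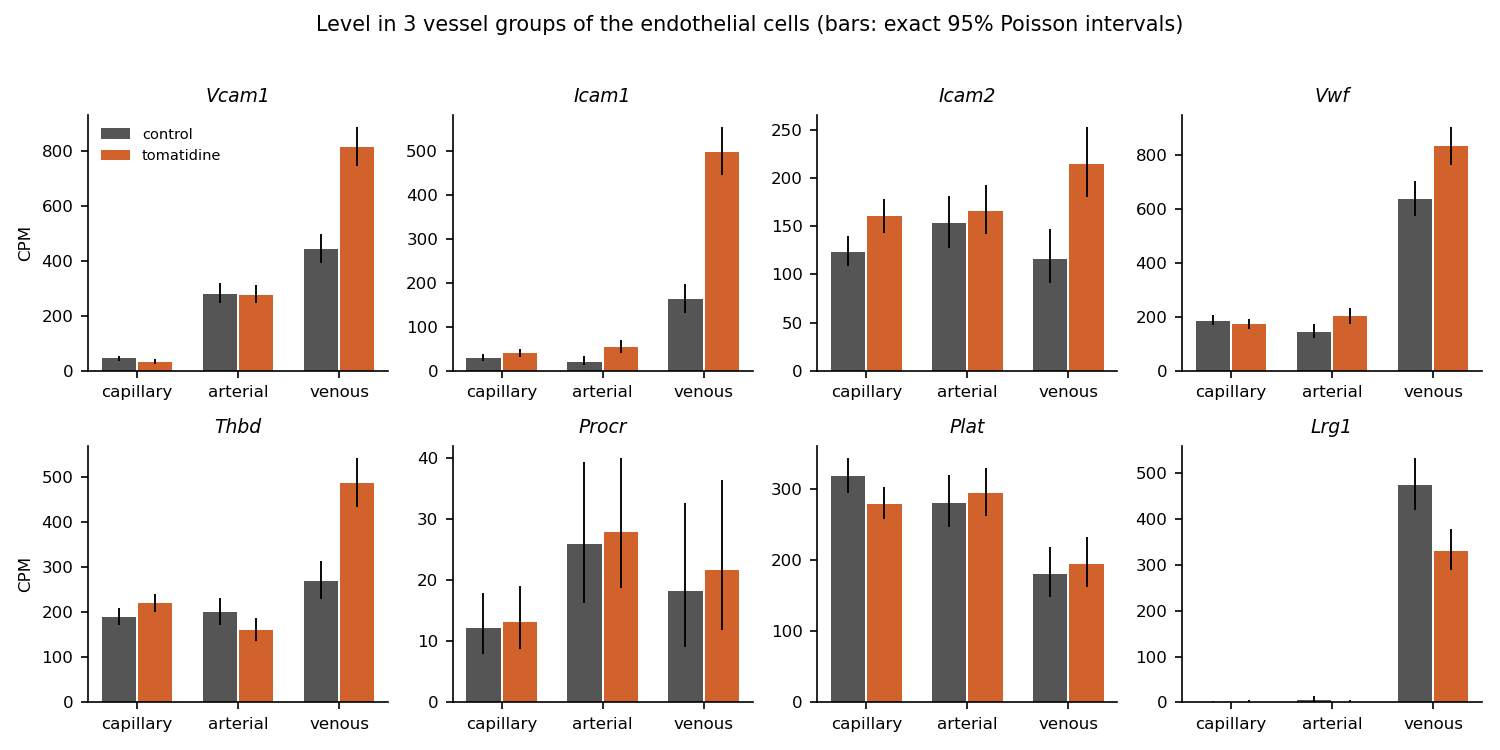
CPM of 8 genes in capillary, arterial and venous cells of the endothelial-like cluster, by library, with exact 95% Poisson intervals as error bars. The tomatidine bar exceeds the control bar in venous cells for Vcam1 (814 against 442 CPM), Icam1 (498 against 163) and Thbd (486 against 269), and is the lower for Lrg1.

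With all cells of each group counted, the ratio of Vcam1 and of Thbd in venous cells was above that in capillary and arterial cells. For Icam1 and Icam2 it was higher too, but not clear of the other groups. The arterial interval of Icam1 (0.58 to 2.22) and the capillary and arterial intervals of Icam2 overlapped those of venous cells. There Icam1 had 98 UMIs in the control and 321 in the tomatidine library, or 163 and 498 CPM, a log2 ratio of 1.61 (1.28 to 1.95), and 1.5 (1.08 to 1.95) without the highest cell of each library, a setting chosen after the data were seen for vessel groups and for other classes. Vcam1 had 266 and 525 UMIs, or 442 and 814 CPM, a log2 ratio of 0.88 (0.67 to 1.10). Icam2 stood at 116 and 214 CPM, a log2 ratio of 0.88 (0.45 to 1.32), and Thbd at 269 and 486 CPM, 0.85 (0.57 to 1.13). Vwf was at 635 and 830 CPM, a log2 ratio of 0.39 (0.19 to 0.58), and Plat was at 181 and 195 CPM, 0.11 (−0.27 to 0.49). When cells without a clear lead of 1 group were left out, the venous ratios were 0.53 for Vcam1, 0.47 (0.16 to 0.79) for Thbd and 0.05 for Vwf. The venous Thbd interval then overlapped that of capillary cells (0.12, −0.10 to 0.34). Venous Icam1 was then at 1.29, below the 1.37 (0.46 to 2.37) of arterial cells, and venous Lrg1 at −0.90. Markers of the other vessel groups also differed within venous cells: the capillary markers summed to 3346.7 CPM in the control and 4705.0 CPM in the tomatidine library, the arterial markers to 690 and 1087.4 CPM, and the venous markers to 3253.6 and 3538.5 CPM. In capillary cells the capillary markers summed to 10747.9 and 11307.5 CPM and the venous markers to 706 and 727 CPM. Sums of different marker sets are not compared with each other, and the part of these markers in the venous ratios was not tested.

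Capillary cells held much lower levels of Vcam1 and Icam1. Vcam1 was at 45.4 and 33.8 CPM, a log2 ratio of −0.42 (−0.89 to 0.04), or −0.98 among cells with a clear lead, and Icam1 at 29.3 and 40.9 CPM, 0.48 (−0.01 to 0.98). Icam2 was at 123 and 160 CPM (0.37, 0.13 to 0.61), and Plat at 319 and 280 CPM (−0.19, −0.35 to −0.03). In arterial cells Vcam1 was at 281 and 277 CPM (−0.02, −0.28 to 0.23), and Vwf at 145 and 202 CPM (0.47, 0.14 to 0.81). Arterial Thbd was at 200 and 160 CPM (−0.32, −0.63 to 0.00). It was at −0.52 among cells with a clear lead and at −0.06 without the highest cell of each library. The arterial markers of this group summed to 3543.5 and 5102.2 CPM and its capillary markers to 4525.2 and 3616.7 CPM. Their part in the arterial ratios was not tested. Arterial Icam1 was at 21.3 and 54.8 CPM, but 1 cell held 26 of the 57 tomatidine UMIs, and without the highest cell of each library its log2 ratio of 1.36 was 0.67 (−0.24 to 1.64). Whether the ratios differ between vessel groups was not tested with 1 library per group. Weighted to the same share of UMIs from each vessel group, the ratios over all endothelial-like cells were 1.29 for Icam1, 0.40 for Vcam1 and −0.52 for Lrg1, close to the ratios without weighting.

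Cells that carried Lrg1 also carried more of the other venous genes. In the 24 Lrg1-positive control cells, of which 20 were venous, Vcam1 stood at 810 CPM against 104 CPM in the remaining cells, Icam1 at 262 against 28.4 and Vwf at 971 against 179. In the 51 positive tomatidine cells, 47 of them venous, Vcam1 stood at 1255.5 against 129 CPM, Icam1 at 776 against 56.3 and Vwf at 1281.3 against 192. Plat was at 222 against 293 CPM in the control and 253 against 271 in the tomatidine library. The positive cells were the shallower ones, with a median of 4682 against 6581.5 UMIs in the control and 3499 against 5026 in the tomatidine library. Venous cells made up 83.3% and 92.2% of the positive cells, against 12.3% and 16.5% of the remaining cells. The split by Lrg1 thus largely repeats that between venous and other cells, and cells were not compared within veins. The positive control cells include the mixed cell of 70479 UMIs. These are descriptions of cells of 1 library each.

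Outside the endothelium, a gene was compared where it had at least 50 UMIs in a class. In fibroblast-like cells, of which there were 288 in the control and 532 in the tomatidine library, Thbd had 570 and 1473 UMIs, or 388 and 597 CPM, a log2 ratio of 0.62 (0.48 to 0.76). It was found in 36.5% and 45.1% of these cells. Vcam1 was lower there, at 356 and 291 CPM (−0.29, −0.45 to −0.12), and so was Plat, at 478 and 376 CPM (−0.35, −0.49 to −0.20). Icam1 was at 53.2 and 68.1 CPM (0.36, −0.04 to 0.76), or 0.75 (0.30 to 1.21) without the highest cell of each library, which held 21 of 78 control UMIs. The number of fibroblast-like cells differed between the libraries, and the part of a different make-up of this class was not tested.

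Icam1 was also higher with tomatidine in microglia-like and astrocyte-like cells. In microglia-like cells, its highest class, it had 410 and 436 UMIs, or 132 and 160 CPM, a log2 ratio of 0.28 (0.08 to 0.48), and was found in 27.5% of 872 and 33.1% of 780 cells. In astrocyte-like cells it was rare, with 51 and 120 UMIs, or 4.69 and 9.47 CPM, a log2 ratio of 1.01 (0.53 to 1.52). In excitatory neuron-like cells it was close to background, at 0.920 and 0.496 CPM, where 1 control cell held 19 of 51 UMIs; its ratio of −0.89 turned to 0.69 when doublets were kept. Vcam1, by contrast, stood at 149 and 144 CPM in astrocyte-like cells, from 1617 and 1821 UMIs, a log2 ratio of −0.05 (−0.15 to 0.05). It was at 42.1 and 44.8 CPM in microglia-like cells (0.09, −0.28 to 0.46) and at 254 and 303 CPM in choroid plexus-like cells (0.26, −0.03 to 0.53, or 0.07 without the highest cell of each library), where only 33 tomatidine cells were found against 343 control cells. The Vcam1 log2 ratio lay between −0.31 and 0.53 in the other 5 classes, all with fewer than 200 UMIs per library and intervals that include 0.

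Plat was read in every class except choroid plexus-like cells with at least 50 UMIs. In excitatory neuron-like cells, which held 27.4% of all its UMIs, it had 2412 and 2190 UMIs, or 43.5 and 45.3 CPM, a log2 ratio of 0.06 (−0.03 to 0.14). It was at 536 and 463 CPM in mural-like cells (−0.21, −0.64 to 0.21), at 380 and 343 CPM in ependymal-like cells (−0.15, −0.56 to 0.25, or −0.78 without the highest cell of each library, 1 of which held 40 of 80 tomatidine UMIs) and at 50.6 and 44.2 CPM in astrocyte-like cells (−0.20, −0.37 to −0.02). In oligodendrocyte-like cells it was at 27.6 and 33.8 CPM (0.29, 0.11 to 0.48), with 46 of 472 tomatidine UMIs in 1 cell, and in subcortical neuron-like cells at 16.4 and 11.6 CPM (−0.50, −0.87 to −0.13). In precursor-like cells of the oligodendrocyte lineage, interneuron-like and microglia-like cells the log2 ratio lay between 0.03 and 0.17, with intervals that include 0. Thbd and Lrg1 in excitatory neuron-like cells, at no more than 2.06 CPM, had log2 ratios of −0.18 (−0.59 to 0.24) and 0.16 (−0.48 to 0.81).

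Other genes of the same pathways were read in endothelial-like cells from lists. Their counts stand beside 53.9% of all genes higher with tomatidine, 6.40% past the fold upward and 5.51% downward, and with lists of 6 to 16 measured genes no count is a result about a list. Among leukocyte adhesion and transmigration genes, 13 of the 16 in the files reached 20 UMIs, 11 with the higher and 2 with the lower CPM after tomatidine, and 1 passed a log2 ratio of 0.5 upward and none downward, with a median of 0.10. Mcam, an adhesion molecule of the endothelial junction, led at 128 and 181 CPM (0.50, 0.33 to 0.68), with 62 of its tomatidine UMIs in 1 cell. Podxl, a sialomucin of the luminal surface, was at 475 and 566 CPM (0.25), and the chemokine Cx3cl1 (−0.01) and Cd47 (−0.11) were the lowest. Sele, the gene of E-selectin, had 14 UMIs in all. Of the integrins and other leukocyte ligands, 7 of 8 were measured, with 5 higher and 2 lower and 2 upward and 1 downward past the fold. Among those with at least 50 UMIs, Itgb1 (0.31, 0.19 to 0.43) was the highest, before Itgam (0.18, −0.40 to 0.77) and Itgb2 (0.18, −0.56 to 0.92), and Itga4 (−0.51, −1.13 to 0.09) and Selplg (−0.29, −0.80 to 0.21) were the lowest. The median was 0.18. Selplg and Itgam were also leading genes of microglia-like clusters, and Itgb2 of an unnamed cluster led by Ccl12, Gpr84 and Lag3. Microglia markers made up 0.0615% and 0.0606% of the endothelial-like UMIs, and the part of RNA from such cells in these ratios was not tested.

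Of the coagulation genes, 12 of 23 were measured, 9 higher and 3 lower, with 4 upward and 1 downward past the fold and a median of 0.11. F3, the gene of tissue factor, which starts clotting, was at 122 and 81.3 CPM (−0.58, −0.80 to −0.37), and F5 at 18.0 and 13.6 CPM (−0.40, −0.96 to 0.15). F5 was also a leading gene of the choroid plexus-like cluster, whose markers made up 0.231% and 0.00918% of the endothelial-like UMIs. The part of RNA from other cells in these ratios was not tested. Entpd1, an enzyme that removes platelet-activating ADP, was at 109 and 155 CPM (0.51, 0.32 to 0.70), and Thbs1 at 28.3 and 41.2 CPM (0.54, 0.17 to 0.92), with 42 of 99 and 57 of 157 UMIs in 1 cell each. Of the fibrinolysis genes, 9 of 13 were measured, 6 higher and 3 lower, with 3 upward and 1 downward past the fold and a median of 0.16. Serpini1, a brain inhibitor of Plat, was at 85.5 and 131 CPM (0.61, 0.40 to 0.82). S100a10, part of the surface complex that binds plasminogen, was at 103 and 72.7 CPM (−0.51, −0.74 to −0.28), with 83 of 361 control UMIs in 1 cell, and Serpine2 at 301 and 264 CPM (−0.19).

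Among genes of the NF-kappaB and cytokine response, 16 of 19 were measured, 13 higher and 3 lower, with 1 upward and none downward past the fold and a median of 0.19. Nfkb2, a subunit of NF-kappaB, was at 38.0 and 51.1 CPM (0.43, 0.10 to 0.76) and Tnfrsf1b, a receptor of TNF, at 36 and 48.5 CPM (0.43, 0.09 to 0.77). Nfkbia, the inhibitor that NF-kappaB itself induces, was lower, at 490 and 409 CPM (−0.26, −0.36 to −0.16), and Socs3 was at −0.26 (−0.91 to 0.38). Of the Weibel-Palade body genes, 9 of 10 were measured, 6 higher and 3 lower, with 3 upward and 1 downward past the fold and a median of 0.26. Rab3b, a small GTPase of secretion, was at 22.9 and 45.6 CPM (1.0), with 54 of 174 tomatidine UMIs in 1 cell, and Rab27a, which holds the granules back from release, at 0.55 (−0.13 to 1.26). Angpt2, the stored antagonist of the Tek receptor, was at 46.1 and 30.4 CPM (−0.60, −0.95 to −0.24), and Cd63, a granule membrane protein, at 192 and 158 CPM (−0.28, −0.45 to −0.12).

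The shear stress list, genes set by blood flow, had 6 measured genes, 3 higher and 3 lower, with 1 upward and none downward past the fold and a median of 0.08. Klf2, a flow-induced factor that raises Thbd, was at 1146.7 and 1062.8 CPM (−0.11, −0.17 to −0.05). Ptgs1 (0.50, 0.00 to 1.01) and Klf10 (0.37, 0.09 to 0.66) were the highest and Slc9a3r1 stood at −0.07 (−0.25 to 0.11). All 8 genes that work with LRG1 in TGF-beta signalling were measured, 6 higher and 2 lower, none past the fold in either direction, with a median of 0.14. Eng (endoglin), the co-receptor LRG1 binds, was at 1338.6 and 1325.1 CPM (−0.01, −0.07 to 0.04) and Tgfbr1 at −0.13 (−0.45 to 0.18). The target genes Id1 and Id3 were at 0.21 and 0.22 (both 0.14 to 0.29). None of these medians can be set apart from that of all genes by a test here.

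Finally, genes were ranked by how closely their level over 14 classes and vessel groups followed each gene, with both libraries summed (Pearson correlation of log2(CPM + 1), a description over groups that share libraries). Icam2 was closest to Tek and Srarp (both 0.99), Vwf to Tmem252 (0.99, itself one of the venous markers) and Gimap4 (0.97), and Thbd to Ppic and Ecm1 (both 0.97). Procr was closest to Stx11 and Mknk2 (both 0.96), Lrg1 to Col6a6 (0.95) and Aplnr (0.90), and Plat to Chp2 (0.93) and Vstm4 (0.91). Vcam1 lay nearest Hspb8 and Gstt3 (both 0.92) and Icam1 nearest Apobec3 and Hacd4 (both 0.92).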

How the data were processed

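Cells fixed from frozen hippocampus were profiled with a probe-based 10x kit, 1 pooled library per group. The authors aligned reads to mm10 with Cell Ranger (8.0.0 in the submitters' processing notes, 7.1.0 in the matrix headers) and deposited filtered matrices of UMI counts per gene and cell, whole numbers without normalization.

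From these counts, cells were kept that had 500 or more UMIs, over 250 genes, a log10 ratio of genes to UMIs over 0.8 and under 20% mitochondrial UMIs, and the 2% with the highest Scrublet scores in each library were removed (Scrublet's own threshold called 0 and 1 cells). Cells were integrated by RPCA in Seurat 5.3.0 (R 4.3.3) with 2000 variable genes, 30 components and resolution 0.8, leaving out the genes reported here. A cluster took a class name when that class led among its 10 genes with the highest fold and at least 3 of its markers were raised at least 2-fold in at least 10% of its cells. No name was given where another class had as many or more raised markers. Vessel groups came from the highest mean marker score per cell; a lead under 0.2 was called unclear.

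UMIs were summed per class and library. Intervals are exact Poisson for sums, exact conditional binomial for ratios, Clopper-Pearson for shares and Newcombe for differences, at 95%. Thinned shares are expected values over all draws of 1500 UMIs. Lists were read over genes with at least 20 UMIs, and a log2 ratio of 0.5 in size was the fold used. Named genes were the 9 genes, the 2 highest and the 2 lowest of each list with at least 50 UMIs, and the 2 most alike with at least 100 UMIs. One gene that the rule names is not reported here. TMM factors came from edgeR 4.0.16, used for these alone. Ratios and thinning were tested on simulated data. The simulated sums were Poisson draws without UMIs gathered in few cells. They therefore cannot show whether the intervals hold for genes such as Lrg1, Icam1 and Vcam1. The genes and lists were chosen with earlier results of these data known. Gene positions are from GENCODE vM21. Sums and intervals were computed in Python 3.11.15 (scipy 1.17.1; numpy 2.4.6; pandas 2.3.3), and plots in matplotlib 3.10.9.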

Additional observations from a re-analysis of the deposited data

Results flagged for a closer look

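Clusters that took no class name were ranked by level in the report, but their libraries were not compared there. In 2 of them a gene stood above the control library beyond counting error. Such intervals were common among all genes: in endothelial-like cells, 1350 of 12536 genes had an interval above 0 and 1177 one below 0. The share over all genes was not taken in the unnamed clusters, and the count is no result about these genes. Vcam1 had 11 control and 64 tomatidine UMIs (1.94 and 4.33 CPM) in a cluster led by Gata3, Sox14 and Lhx5, a log2 ratio of 1.15 (0.22 to 2.23). These levels lay below those of oligodendrocyte-like cells (4.60 and 6.24 CPM), the gauge of free RNA. The cluster had 180 control and 518 tomatidine cells, and 15 of the 64 UMIs lay in 1 cell. Icam1 had 33 and 49 UMIs (34.2 and 59.5 CPM) in a cluster led by Ccl12, Gpr84 and Lag3, a log2 ratio of 0.80 (0.13 to 1.48). Intervals below 0 occurred as well, among them 2 for Plat. It had 64 and 79 UMIs in a cluster led by Ctxn3, Agt and Ebf3 (−0.55, −1.05 to −0.05). Without the highest cell of each library this interval included 0 (−0.51, −1.04 to 0.02). In a cluster led by Gpr151, Chrnb4 and Gng8, Plat had 52 and 4 UMIs (−1.54, −3.47 to −0.10). No cause was tested for any of these.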

How the results depend on the processing

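No paired analysis was possible because each group is 1 library of pooled mice. A value counts as moved here when it left the 95% counting interval of the reported log2 ratio (for shares, of the reported difference). In endothelial-like cells, doublet removal, integration, resolution, TMM scaling, an equal vessel mix and the restriction to cells with a Y-linked UMI moved none of the 8 ratios, nor their median of 0.24. The stricter cell filter gave 0.94 for Vcam1, 0.59 for Icam2, 0.50 for Vwf, 0.55 for Thbd, 0.64 for Lrg1 and 0.57 for the median. The marker gate gave 0.20 for Vcam1, 0.88 for Icam1, 0.18 for Icam2, 0.02 for Vwf, −0.01 for Thbd, −0.25 for Plat and 0.01 for the median. The mean over cells gave 0.73 for Vcam1, 0.61 for Icam2, 0.59 for Vwf, 0.56 for Thbd, −0.28 for Plat, 0.15 for Lrg1 and 0.58 for the median. Without the cell with the most UMIs, Vcam1 was at 0.24, Icam1 at 0.79 and Lrg1 at −0.05. Of 3 settings chosen after seeing the data, fewer than 4 mural markers gave 0.89 for Vcam1, 0.46 for Vwf, 0.62 for Thbd, −0.51 for Plat, 0.50 for Lrg1 and 0.52 for the median, and at most 10 UMIs per cell gave 0.88 for Icam1, 0.44 for Vwf and 0.53 for Lrg1; the third, leaving out the highest cell of each library in vessel groups and classes, put Plat in ependymal-like cells at −0.78. Among cells with a clear lead, capillary Vcam1 was at −0.98 and venous Vcam1 at 0.53, Vwf at 0.05, Thbd at 0.47 and Lrg1 at −0.90. Unthinned, the Procr share differed by −2.52 points. With doublets kept, Icam1 in excitatory neuron-like cells was at 0.69, Vcam1 there at 0.54 and Plat at 0.15. The causes of these changes were not tested. Depth limited Selp and Procr, and 1 library per group limits every difference.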

Other observations

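In the cluster led by H2-Ab1, Mrc1 and Cd163, Lrg1 had 36 UMIs in the control and 2 in the tomatidine library (56.4 and 3.87 CPM), but 22 of the 36 lay in 1 cell. Vcam1 was at 326 and 329 CPM there, and Icam1 at 114 and 106 CPM. In a cluster led by Nxph3, Ccn2 and Krt80, Lrg1 was rare, with 39 and 14 UMIs (2.50 and 1.02 CPM), a log2 ratio of −1.30 (−2.29 to −0.38). In a cluster led by Gpr151, Chrnb4 and Gng8, Thbd had 44 and 1 UMIs (20.3 and 2.06 CPM), with 24 of the 44 in 1 control cell. These values were picked after they were seen.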
